A study of Mus musculus with 6 samples.

Results

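The imprinted *Igf2*-*H19* and *Kcnq1ot1* domains lie next to each other on distal mouse chromosome 7 and were examined by RNA-seq in WT and *Patz1* KO embryonic stem cells (ESCs). Their 10 genes were taken by symbol from the count tables: *H19* and *Igf2* for the first domain, and *Cdkn1c*, *Phlda2*, *Slc22a18*, *Kcnq1ot1*, *Kcnq1*, *Ascl2*, *Tssc4* and *Cd81* for the second. They make up 10 of the 23420 gene symbols counted. E14 is a male mouse ESC line, and the cultures contained LIF together with MEK and GSK3 inhibitors, which hold ESCs in the undifferentiated state. The libraries comprised 3 of WT ESCs and 3 of ESCs in which *Patz1*, encoding a zinc finger protein that binds G-rich DNA, had been targeted with CRISPR/Cas9. KO cells were picked as single clones after use of one guide, and the sources used here do not say whether the KO libraries came from the same clone. Stranded libraries were built from total RNA after removal of ribosomal RNA.

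Imprinted genes are expressed mainly from the copy inherited from one parent, under the control of a DNA region that carries methylation from one germline. In the *Igf2*-*H19* domain, the maternal copy of that region binds the insulator protein CTCF, which separates *Igf2* from enhancers that it shares with *H19*. *H19* RNA is therefore made from the maternal copy and *Igf2*, a growth factor, from the paternal copy. In the neighbouring domain, the paternal copy makes the long antisense RNA Kcnq1ot1, which starts inside *Kcnq1* and keeps the surrounding protein-coding genes silent on that copy, so that these are expressed from the maternal copy. *Tssc4* and *Cd81* lie at the edge of this domain, where imprinting is weak or limited to certain tissues. The counts analysed here sum both parental copies, so they give the RNA level of each gene and not the allele it came from.

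The guide that targeted *Patz1* covered the start codon of the gene, which is why it is shown with the ATG in capitals. It matched GRCm38 (mm10) chromosome 11, plus strand, from base 3290600 to 3290619, and was followed by the sequence CGG.

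*Patz1* guide: aaggggcagcgaccATGgag

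*Patz1* itself (chr11:3288874-3309083, plus strand) was at 1838, 1983 and 1843 normalized counts in WT (replicates 1, 2 and 3) and at 853, 862 and 862 in KO. Normalized counts are read counts divided by a size factor for each library. The KO level was 45.5% of the WT level, with a log2 fold change, KO over WT, of -1.14 and an adjusted p of 1.58e-26 (DESeq2). The transcript was thus reduced but still counted in every KO library. The counts do not measure the protein, for which the study reported a loss of the PATZ1 signal in its KO lines by western blot.

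Sequences of 250 bases before the annotated start are shown for members whose RNA level differed between genotypes or that head a domain, because *Patz1* encodes a protein that binds G-rich DNA. They were read from RefSeq (GRCm38.p6) on the minus strand, 5′ to 3′, with matches to GGGAGGG or its reverse complement CCCTCCC in capitals. Promoter windows were used for 7 of the 10 members, with 4 for *Igf2*, and those of *H19*, *Cdkn1c* and *Kcnq1* were not analysed here.

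*Igf2* chr7:142657497-142657746: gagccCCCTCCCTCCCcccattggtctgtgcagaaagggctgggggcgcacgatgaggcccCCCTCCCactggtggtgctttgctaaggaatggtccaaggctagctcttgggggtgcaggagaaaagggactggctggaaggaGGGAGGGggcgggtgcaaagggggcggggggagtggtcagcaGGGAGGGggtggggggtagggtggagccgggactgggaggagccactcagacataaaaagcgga

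*Igf2* chr7:142658805-142659054: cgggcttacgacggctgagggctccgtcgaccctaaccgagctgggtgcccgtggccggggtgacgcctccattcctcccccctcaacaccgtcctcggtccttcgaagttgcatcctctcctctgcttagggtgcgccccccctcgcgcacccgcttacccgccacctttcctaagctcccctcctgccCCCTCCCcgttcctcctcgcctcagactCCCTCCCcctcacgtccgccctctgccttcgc

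*Igf2* chr7:142661272-142661521: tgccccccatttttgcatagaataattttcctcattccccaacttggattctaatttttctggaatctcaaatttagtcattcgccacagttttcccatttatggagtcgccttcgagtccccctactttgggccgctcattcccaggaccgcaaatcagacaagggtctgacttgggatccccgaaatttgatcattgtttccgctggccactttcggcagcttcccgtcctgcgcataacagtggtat

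*Igf2* chr7:142666817-142667066: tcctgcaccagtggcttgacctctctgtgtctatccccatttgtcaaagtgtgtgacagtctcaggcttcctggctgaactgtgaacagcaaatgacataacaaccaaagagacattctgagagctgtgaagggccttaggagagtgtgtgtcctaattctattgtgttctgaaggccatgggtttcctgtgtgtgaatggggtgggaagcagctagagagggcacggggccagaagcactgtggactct

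*Phlda2* chr7:143502525-143502774: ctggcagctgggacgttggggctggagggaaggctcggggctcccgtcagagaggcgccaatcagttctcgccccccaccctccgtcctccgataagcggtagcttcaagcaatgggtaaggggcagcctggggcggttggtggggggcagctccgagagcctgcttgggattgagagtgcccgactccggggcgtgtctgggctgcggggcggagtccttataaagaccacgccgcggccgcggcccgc

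*Kcnq1ot1* chr7:143296548-143296797: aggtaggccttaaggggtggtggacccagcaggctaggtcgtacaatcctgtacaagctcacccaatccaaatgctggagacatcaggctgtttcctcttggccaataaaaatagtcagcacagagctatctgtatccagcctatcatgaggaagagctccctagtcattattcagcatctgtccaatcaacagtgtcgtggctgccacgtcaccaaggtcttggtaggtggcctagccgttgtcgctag

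The first of these *Igf2* windows held 5 matches, counted with overlap, and the second held 2. No match was present in the other *Igf2* windows or in those of *Phlda2* and *Kcnq1ot1*. A further match in front of *Ascl2* made 3 of 10 member windows with the motif, against 21.95% of all 32851 promoter windows of 300 bases. CpG dinucleotides, the sites of DNA methylation, numbered 26 in the *Phlda2* window of 300 bases, 24 in the second *Igf2* window, 9 in the *Kcnq1ot1* window and 7 in the first *Igf2* window. The other *Igf2* windows held 14 and 2, and the median over all windows was 7. A match describes these letters and not binding, and the counts per gene do not tell which *Igf2* start was used.

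The deposited counts summed to between 37573923 and 47721070 in replicates 1 and 2 of both genotypes, but only to 11040756 and 11420268 in the replicate 3 libraries of WT and KO. In the replicate 3 libraries, the ribosomal RNA gene *Rn45s* also took 14.4% and 12.5% of the counts, against 1.79 to 3.03% in the others. A count of 3, taken as the floor of detection, corresponded to 1.69 to 8.21 normalized counts, and this floor covers counting error only. Of 15309 genes tested with DESeq2 at an adjusted p threshold of 0.05, 1146 genes (7.49%) differed between genotypes, with 414 (2.70%) higher and 732 lower in KO. The 3 replicates of a genotype were not stated in the sample labels to be separate cultures, so the p-values measure the spread between these libraries.

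Of the 10 members, 9 were tested, and 3 were higher in *Patz1* KO ESCs and none was lower: *Igf2*, *Cdkn1c* and *Phlda2*. Over all tested genes 7.49% were called, and 2.70% were higher. No member was lower at an unadjusted p under 0.05 in DESeq2, or by the edgeR test. With the replicate number as a block 1 member, *Kcnq1ot1*, was lower, in a fit that called 14.6% of all tested genes. By domain, 1 of 2 genes of the *Igf2*-*H19* domain and 2 of the 7 tested genes of the *Kcnq1ot1* domain passed the threshold. By parental copy, 2 of the 7 tested maternally expressed genes and 1 of the 2 paternally expressed genes did so. The log2 fold change was positive for 8 of the 9 tested members, with a median of 0.39, whereas the median of all genes was 0.01 and 7898 of 15309 were positive. The plot of normalized counts by library shows each value.

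**Figure D1:**
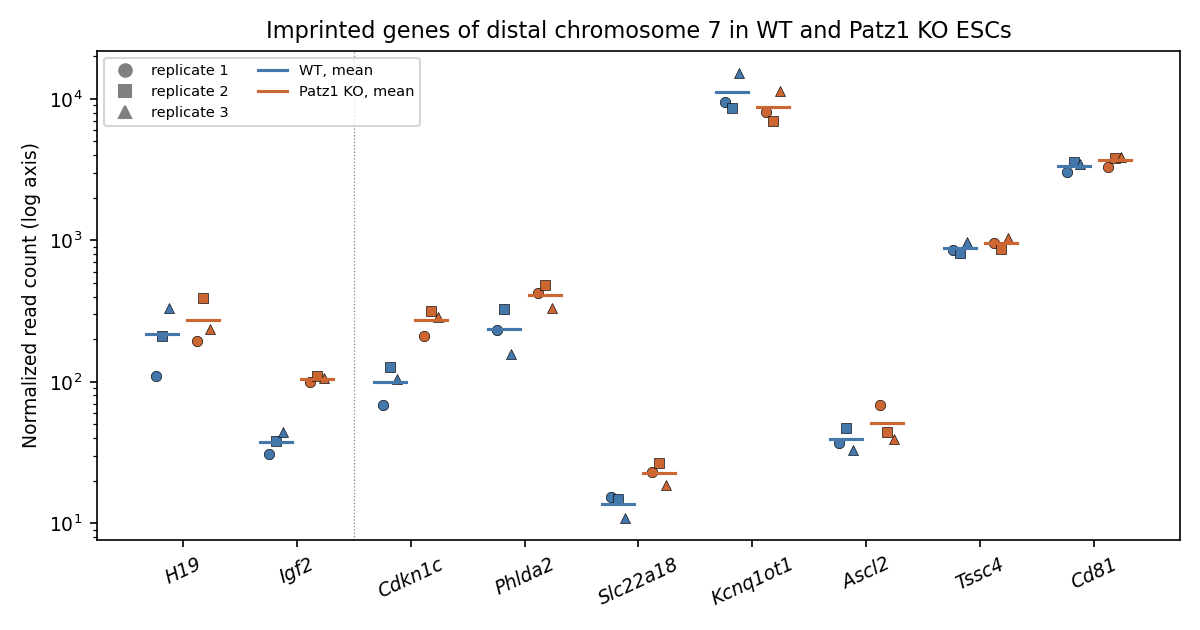
Normalized read counts (log axis) of the members in each of the 3 WT and 3 *Patz1* KO libraries, with genes along the x axis, points for libraries and horizontal bars for the means of each genotype. *Kcnq1*, at or near 0 in all libraries, is not drawn. *Igf2*, *Cdkn1c*, *Phlda2* and *Slc22a18* have every KO library above every WT library, and the other members overlap between genotypes.

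*Igf2* (chr7:142650766-142666816, minus strand) encodes the fetal insulin-like growth factor and is expressed from the paternal copy. The WT libraries gave 30.9, 38.1 and 43.8 normalized counts, in replicate order as throughout, and the KO libraries 99.3, 109.7 and 106. The KO libraries were close to each other and all lay above the highest WT library. The mean rose from 37.6 ± 6.48 to 105 ± 5.24 (SD, n = 3 each), a 2.79-fold difference with a log2 fold change of 1.53 (SE 0.28, 95% interval 0.99 to 2.08, adjusted p = 2.70e-06 by DESeq2). These values rest on few reads, from 16 to 54 raw counts in WT and from 40 to 185 in KO. *Igf2* exons share 3596 bases with the annotated gene model *Gm49394* on the same strand, so reads of the pair cannot be told apart by position there.

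*H19* (chr7:142575529-142578143, minus strand) gives the maternally expressed noncoding RNA of the domain and did not pass the test. Its normalized counts were 109, 211 and 334 in WT and 195, 392 and 235 in KO. The libraries overlapped widely, and KO exceeded WT in replicates 1 and 2 and was lower in replicate 3. The estimate of 0.34 on the log2 scale had an SE of 0.54 and an adjusted p of 0.860, and its interval from -0.71 to 1.39 spans both falls and rises. The WT libraries alone had a coefficient of variation of 51.6% for *H19*.

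Reading the 2 genes of the domain against each other within a library does not depend on library size. The number of *H19* counts per *Igf2* count was 3.54, 5.54 and 7.63 in WT and 1.97, 3.57 and 2.23 in KO. Replicate by replicate the ratio was lower in KO, but KO replicate 2 lay just above WT replicate 1, so the genotypes overlapped. Per kilobase of annotated exon, *H19* exceeded *Igf2* by 8.23 to 17.7 times in WT and by 4.57 to 8.31 times in KO. *H19* thus remained the more abundant RNA of the pair in all 6 libraries.

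*Cdkn1c* (chr7:143458339-143461050, minus strand) encodes a cyclin-dependent kinase inhibitor that restrains cell division and embryonic growth. Normalized counts were 68.6, 128 and 104 in WT and 212, 316 and 288 in KO. All KO libraries were above all WT libraries, and replicate 1 was the lowest of each genotype. The mean rose 2.71-fold, from 100.2 ± 29.8 to 272 ± 54.1 (SD, n = 3 each), with a log2 fold change of 1.45 (SE 0.25, interval 0.96 to 1.93, adjusted p = 4.82e-07). Within replicate numbers, the log2 differences were 1.62, 1.31 and 1.47. Of its 2039 exonic bases, *Cdkn1c* shares 625 with the gene model *Gm44732* on the other strand, and reads there can be told apart only if strand was used in counting.

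*Phlda2* (chr7:143501545-143503150, minus strand), whose protein limits placental growth, had 231, 326 and 156 normalized counts in WT and 423, 484 and 330 in KO. The genotypes were separated by a narrow gap, with 326.2 in WT replicate 2 and 330.3 in KO replicate 3. The mean rose from 238 ± 85.3 to 412 ± 77.3 (SD, n = 3 each), or by 0.77 on the log2 scale (SE 0.22, interval 0.34 to 1.21, adjusted p = 0.01004). This call was less firm than those of *Igf2* and *Cdkn1c*. It was lost when WT replicate 1 (adjusted p = 0.142), KO replicate 1 (0.124) or KO replicate 2 (0.201) was left out, and with the edgeR quasi-likelihood test (0.0529).

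*Slc22a18*, a membrane transporter gene that lies just beside *Phlda2* (chr7:143473736-143499334, plus strand), was much less abundant. It had 15.4, 14.8 and 10.95 normalized counts in WT and 23.1, 26.7 and 18.5 in KO, so that all KO libraries were above all WT libraries. The log2 fold change of 0.71 (SE 0.50, adjusted p = 0.537) did not pass the test, and the replicate 3 libraries held only 4 and 7 reads. Together with *Igf2*, *Cdkn1c* and *Phlda2* it made 4 of 9 tested members with KO libraries wholly above WT, where 11.8% of all tested genes had this arrangement.

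*Kcnq1ot1*, the paternally expressed antisense RNA (chr7:143203458-143296549, minus strand), was the member with the most reads. Its normalized counts were 9528, 8609 and 15249 in WT and 8097, 6953 and 11400 in KO. The highest value of each genotype was in replicate 3, where the libraries were shallow and rich in *Rn45s*, and each KO library was below the WT library of the same number. The estimate of -0.34 on the log2 scale (SE 0.35, interval -1.02 to 0.34, adjusted p = 0.746) did not pass the test.

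Because same-numbered libraries deviated together across genes, the replicate number was also fitted as a block. *Kcnq1ot1* was then lower in KO by -0.32 on the log2 scale with an adjusted p of 9.07e-07, in a fit that called 14.6% of all tested genes. Without both replicate 3 libraries, the unblocked difference was -0.27 (adjusted p = 0.0629), and with 1 library left out it ran from -0.05 without WT replicate 3 and -0.19 without KO replicate 2 to -0.49 without WT replicate 2 and -0.56 without KO replicate 3, none of which passed. *Kcnq1ot1* is counted over one uninterrupted exon of 93092 bases, of which 121 are shared with exons of *Kcnq1* on the other strand.

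*Kcnq1* itself, which encodes a potassium channel subunit (chr7:143106362-143427042, plus strand), was at or below the floor in all libraries. It had 0, 0 and 1 reads in WT and 1, 2 and 0 in KO, and no fold change is given. Most of the *Kcnq1ot1* exon lies within a *Kcnq1* intron, so that only few of its bases could be counted for either gene. The strand setting of the counting is not given in the sources used here.

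The number of *Cdkn1c* reads per 1000 *Kcnq1ot1* reads was 7.20, 14.9 and 6.82 in WT and 26.1, 45.5 and 25.3 in KO. All KO libraries were above all WT libraries in this ratio of a maternally expressed gene to the paternal antisense RNA. For *Phlda2* the ratio was 24.2, 37.9 and 10.2 in WT and 52.2, 69.6 and 29.0 in KO, with KO higher within each replicate number and an overlap between KO replicate 3 and WT replicate 2. *Kcnq1ot1* made up 62.6 to 74.9% of the reads of the 10 members in WT and 53.5 to 65.7% in KO. The plot of ratios within libraries shows these values.

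**Figure D2:**
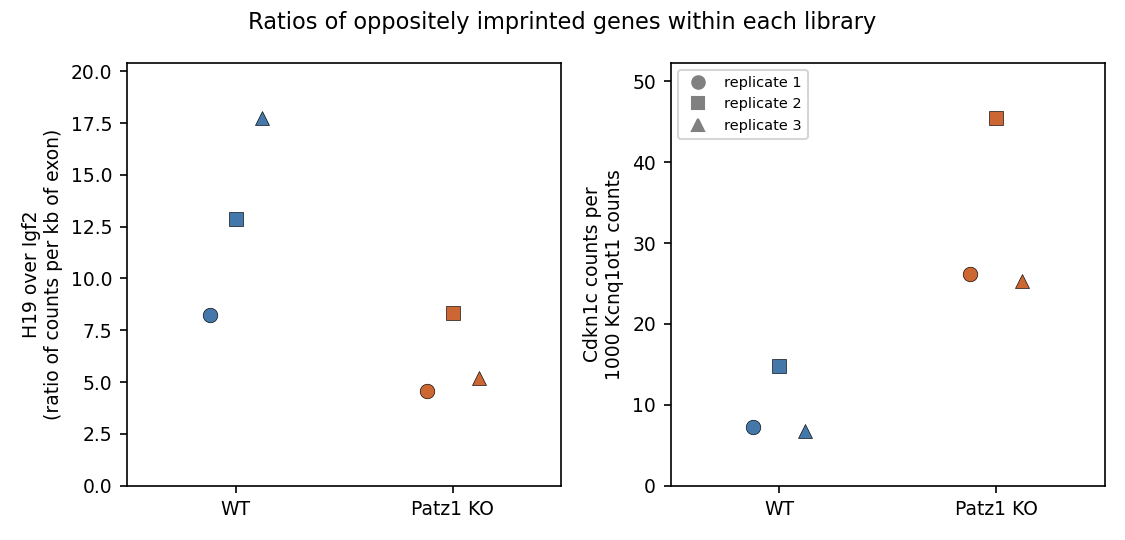
Ratios within each of the 3 WT and 3 *Patz1* KO libraries, shown as points whose shape gives the replicate number. The left panel plots *H19* over *Igf2* counts per kilobase of exon, where the genotypes overlap slightly (8.23 to 17.7 in WT and 4.57 to 8.31 in KO), and the right panel plots *Cdkn1c* counts per 1000 *Kcnq1ot1* counts, where they do not (6.82 to 14.9 in WT and 25.3 to 45.5 in KO).

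The 3 remaining genes lie on the side of the domain that faces *Igf2*, and none passed the test. *Ascl2*, a transcription factor required in the trophoblast, had 37.2, 47.3 and 32.9 normalized counts in WT and 68.9, 43.9 and 39.6 in KO. The high value of KO replicate 1 stood alone, the other KO libraries fell within the WT range, and the estimate of 0.39 on the log2 scale had an SE of 0.35 and an adjusted p of 0.692.

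*Tssc4* had 853, 819 and 972 normalized counts in WT and 958, 867 and 1039 in KO, which gave an estimate of 0.12 on the log2 scale (interval -0.12 to 0.36, adjusted p = 0.751). *Cd81*, encoding a tetraspanin of the cell surface, had 3022, 3555 and 3458 in WT and 3323, 3807 and 3895 in KO, with an estimate of 0.14 (interval -0.08 to 0.35, adjusted p = 0.629). For both genes the genotypes overlapped, while each KO library was slightly above the WT library of the same number. The upper bounds of both intervals, 0.36 and 0.35, lie below the intervals of *Igf2* (from 0.99) and *Cdkn1c* (from 0.96). The interval of *Phlda2*, from 0.34, overlaps both, so *Phlda2* was not separated from these genes.

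**Figure D3:**
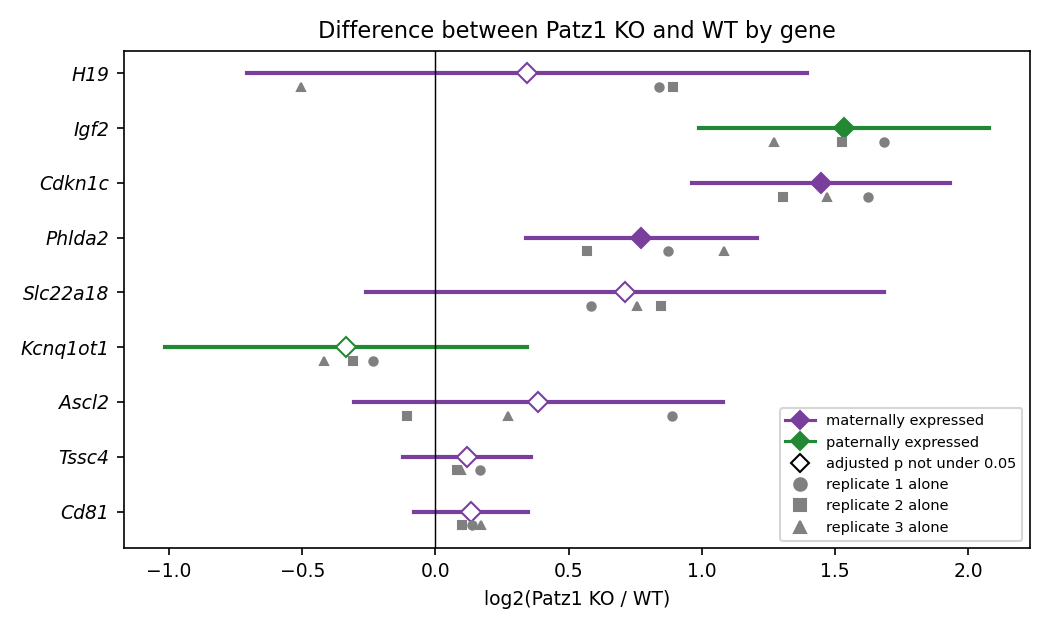
Log2 fold changes, KO over WT, with 95% intervals for the 9 members with a test, colored by expressed parental copy, with grey points for the differences between libraries of the same replicate number. Open diamonds mark genes that did not pass the adjusted p threshold of 0.05. The intervals of *Igf2* (0.99 to 2.08), *Cdkn1c* (0.96 to 1.93) and *Phlda2* (0.34 to 1.21) lie above 0, and those of the other members include 0.

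Levels can be compared between genes as normalized counts per kilobase of exon. On this scale the order of the WT means was *Cd81* (1162), *Tssc4* (478), *Phlda2* (212), *Kcnq1ot1* (119.5), *H19* (88.7), *Cdkn1c* (49.1), *Ascl2* (24.1), *Slc22a18* (8.09), *Igf2* (6.57) and *Kcnq1* (0.223). The genes at the edge of the domain, where imprinting is weak, thus stood at the top, and *Igf2* near the bottom. In KO, *Cdkn1c* reached 133 per kilobase, above the means of *H19* (111) and *Kcnq1ot1* (94.7), and *Igf2* (18.3) was above *Slc22a18* (13.4). The libraries of *Cdkn1c* (SD 26.5), *H19* (42.3) and *Kcnq1ot1* (24.8) overlapped in KO, so the order of these 3 was not separated by their spread. *Kcnq1ot1* and *H19*, with SDs of 38.6 and 45.8 in WT, were not separated by their spread, nor were *Phlda2* and *Kcnq1ot1*, *H19* and *Cdkn1c*, or *Slc22a18* and *Igf2*.

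Adding the maternally expressed members, *Cd81* and *Tssc4* included, gave 4336, 5102 and 5071 normalized counts in WT and 5204, 5937 and 5846 in KO, with KO above WT throughout. Without *Cd81* and *Tssc4* the sums were 462, 727 and 641 in WT and 922, 1264 and 912 in KO. Both sets of sums include *Cdkn1c* and *Phlda2*, already called higher, so they are no separate result for the maternally expressed members. The paternally expressed sum, nearly all of it *Kcnq1ot1*, was 9559, 8647 and 15292 in WT and 8196, 7063 and 11506 in KO and overlapped between genotypes.

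The region around the members was examined for other genes with altered RNA levels. Within 1 Mb on either side, the files held 48 other symbols, of which 25 were tested. Over all tested genes DESeq2 called 7.49%, and 2.70% as higher, so few calls can be looked for among 25 genes. None was higher in KO by DESeq2 (1 at an unadjusted p under 0.05) or by edgeR, and only *Brsk2*, encoding a brain kinase, was lower. It fell from 34.7 to 10.9 normalized counts (log2 fold change -1.86, adjusted p = 0.00333), a call that was lost in 4 of 6 fits that left out 1 library, namely WT replicates 1 and 2 and KO replicates 1 and 2. The median log2 fold change of the 25 genes was 0.08, and 15 were positive. Over the whole of chromosome 7, 25 of 1220 tested genes were higher and 38 lower, or 5.16% called.

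Of 21 named neighbours of the domains with a counted symbol, 12 were tested and none passed, either by DESeq2 (0 also at an unadjusted p under 0.05) or by edgeR. DESeq2 called 7.49% of all tested genes, so the absence of calls among 12 says little about the neighbours. Between the outermost members, 5 other genes were tested, again too few for that share to tell. Of these 1, *Igf2as*, had an unadjusted p under 0.05 and none passed with either tool. All 5 had positive estimates, with a median log2 fold change of 0.44, and 3 had KO libraries wholly above WT (11.8% of all tested genes), so that positive estimates were not particular to the members. Chosen after its values were seen, *Igf2as*, the antisense transcript of *Igf2*, had 6, 10 and 0 reads in WT and 19, 35 and 5 in KO. Its KO libraries were all above WT in normalized counts (3.50 ± 3.53 against 14.9 ± 5.23, SD, n = 3 each), with a log2 fold change of 1.84 and an adjusted p of 0.157. *Igf2as* and *Igf2* share 98 exonic bases on opposite strands. *Ins2*, which lies next to *Igf2*, and the microRNA genes *Mir675* inside *H19* and *Mir483* inside *Igf2* had no counts in any library. For *Ins2* and *Mir483* this allows up to 3 counts each. *Mir675* shares 84 exonic bases with *H19* on the same strand, where position cannot tell their reads apart, so its 0 sets no such bound.

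**Figure D4:**
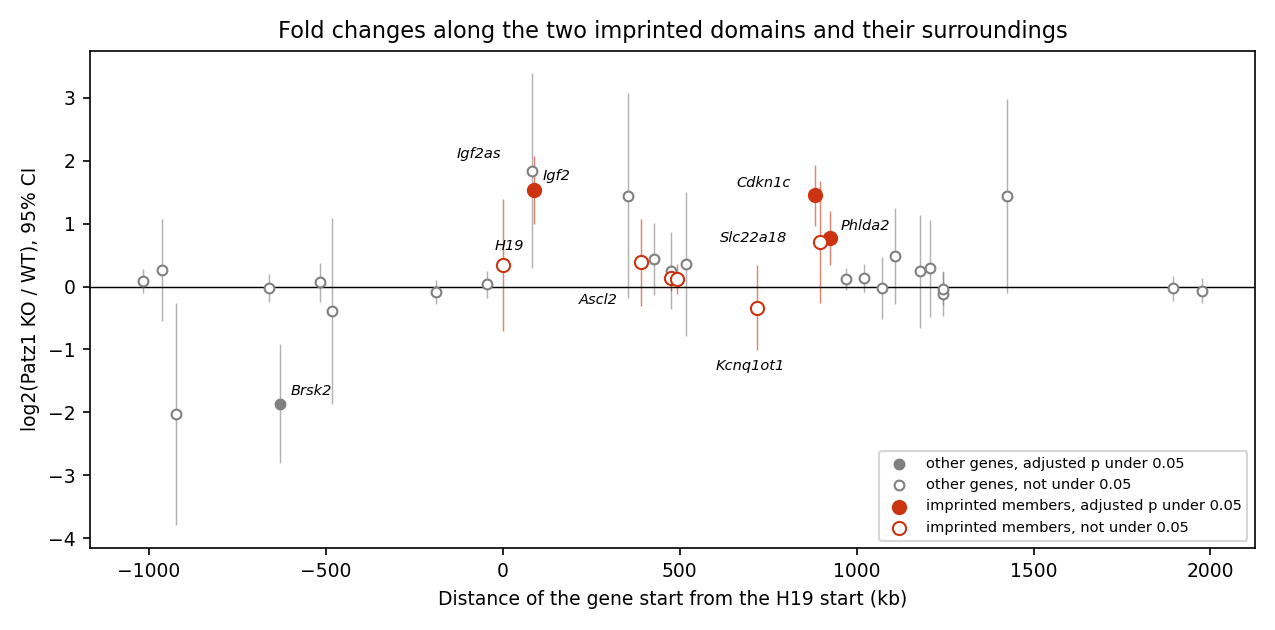
Log2 fold changes, KO over WT, of tested genes in the chromosome 7 window, placed by distance from the start of *H19* in kilobases, with vertical bars for 95% intervals, red points for members and grey points for other genes, filled where the adjusted p was under 0.05. *Igf2*, *Cdkn1c* and *Phlda2* passed the threshold as higher in KO and *Brsk2* as lower (-1.86), while *Igf2as* (1.84), *Shank2* (1.45), *Th* (1.44) and, in the other direction, *Muc6* (-2.03) had estimates of like size with wide intervals and did not pass.

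Genes that maintain imprints or modify chromatin were taken as a list of 24, chosen with earlier results of these data known. After the test, 2 were higher and 2 lower in KO. *Dnmt3l*, a cofactor of DNA methylation, rose from 5407 to 7808 normalized counts (log2 fold change 0.53, adjusted p = 0.00953), and *Atrx*, a chromatin remodeler, rose by 0.40 (adjusted p = 0.0295). *Suz12*, a subunit of Polycomb complex PRC2, fell by 0.37 on the log2 scale (adjusted p = 0.00120), and *Dppa3*, which protects imprints in the early embryo, had a log2 fold change of -1.08 (adjusted p = 0.0375). *Zfp57*, *Trim28*, *Ctcf* and *Dnmt1*, which guard the control regions or bind them, had estimates of 0.04, -0.02, 0.04 and 0.09 and did not pass. Of the called genes, *Suz12* kept its call in all 6 fits that left out 1 library, *Dnmt3l* in 3, *Atrx* in 2 and *Dppa3* in 1, and neither *Dnmt3l* nor *Atrx* passed with edgeR. Without both replicate 3 libraries, *Dnmt3l* (adjusted p = 0.568 by DESeq2) and *Dppa3* (0.0592) lost their calls, while *Suz12* and *Atrx* kept theirs. With the replicate block, which called 14.6% of all genes against 7.49% without it, 7 genes of the list passed, adding *Uhrf1* (-0.19), *Hells* (0.16) and *Eed* (0.16).

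In the list of genes that receive, transport or regulate IGF2, 1 of 18 tested members was lower, a share no higher than the 7.49% called over all genes. This was *Plagl1*, an imprinted zinc finger gene of another chromosome whose protein activates imprinted growth genes. Its normalized counts were 1073, 1235 and 1323 in WT and 563, 607 and 618 in KO, so that each KO library was below each WT library, with a log2 fold change of -1.02 (adjusted p = 3.30e-14). *Igf2r*, which takes up and degrades IGF2, had an estimate of -0.15 (adjusted p = 0.481), and the receptor *Igf1r* one of -0.06. With the replicate block 3 of 18 passed, beside 14.6% of all genes, adding *Igfbp2* (0.21) and *Igf2bp1* (-0.15). None of the 6 tested CDK inhibitor genes other than *Cdkn1c* passed, by DESeq2 (0 also at an unadjusted p under 0.05) or by edgeR, including *Cdkn1a* (-0.06) and *Cdkn1b* (-0.05).

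Markers of ESCs and of other cell types that such cultures could hold were read beside the members. In bulk RNA, fewer cells of a type and less RNA per cell cannot be told apart. All 10 ESC markers were present, with summed normalized counts of 138047 to 147162 in WT and 159519 to 164245 in KO, and 1 of them, *Dppa5a*, was called higher. The marker counts here stand beside 7.49% called over all genes. With the replicate block (14.6% of all genes called) 4 were called, *Pou5f1*, *Zfp42* and *Fgf4* in addition. Mesenchymal and fibroblast markers summed to 274 to 317 in WT and 338 to 404 in KO, with *Twist1* (0.97, adjusted p = 0.0378) and *Thy1* (0.83, adjusted p = 0.0147) called higher on the log2 scale of 5 tested. Of the 10 markers, *Col3a1*, *Twist2*, *Dcn*, *Lum* and *Postn* had at most 4 reads in any library, whereas *Col1a1* and *Col1a2* reached 23 and 25 reads and *Pdgfrb* had 41 to 299. The median log2 fold change of the 5 tested genes was -0.16, opposite in sign to the sum.

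Beside the counts of called endoderm and trophoblast markers given next, 7.49% of all tested genes were called. Primitive endoderm markers summed to 145 to 205 in WT and 187 to 233 in KO. Of 7 tested, 1 passed: *Dab2* rose from 32.6 to 78.7 normalized counts (log2 fold change 1.33, adjusted p = 0.00191), *Foxa2* had no reads in WT and 12.4, 4.15 and 5.29 normalized counts in KO, and *Ttr* was at 0 throughout. *Foxa2* received no adjusted p under the default independent filtering and was called with edgeR and without that filtering, which made 2 called endoderm markers. Of the 7 tested endoderm markers 2 had positive estimates, with a median of -0.12, and *Sox17* (-0.83), *Pdgfra* (-0.51), *Gata4* (-0.17), *Gata6* (-0.12) and *Sox7* (-0.01), named after their values were seen, were negative and did not pass. Trophoblast markers summed to 1913 to 2096 in WT and 1810 to 1889 in KO, with *Tfap2c* higher and *Krt8* and *Cdx2* lower of 7 tested, and *Tpbpa* and *Prl3d1* at 0. The summed ESC and mesenchymal markers were thus higher and the summed trophoblast markers lower in every KO library than in every WT library, while the primitive endoderm sums overlapped. The trophoblast difference rested on *Krt8*: without it, a sum chosen after the data were seen, the markers summed to 1374, 1289 and 1394 in WT and to 1496, 1400.3 and 1364 in KO and overlapped between genotypes. The mesenchymal difference rested on *Twist1* and *Thy1*, without which the sums, chosen in the same way, were 200.2, 181 and 153 in WT and 164, 174 and 122 in KO. The ESC sums without *Dppa5a* were still apart, at 105050 to 108610 in WT and 114324 to 116730 in KO. Of the marker calls, that of *Krt8* was kept in all 6 fits with 1 library left out, *Tfap2c* in 5, *Dppa5a* and *Dab2* in 4, *Twist1* in 2, *Thy1* in 1 and *Cdx2* in 0. Without both replicate 3 libraries, *Cdx2* (adjusted p = 0.0971 by DESeq2) and *Thy1* (0.0715) lost their calls and the other called markers kept theirs. The part of the marker genes in the result for *Igf2*, *Cdkn1c* and *Phlda2* was not tested.

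**Figure D5:**
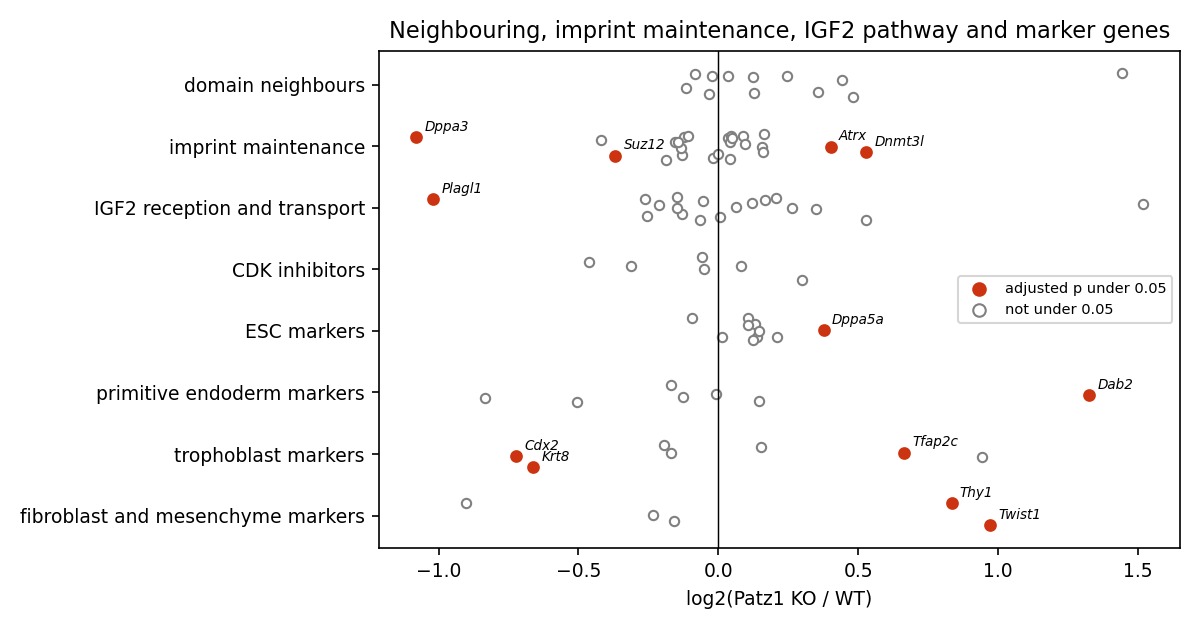
Log2 fold changes, KO over WT, of the tested genes of each list, with the lists along the y axis and filled, named points for genes with an adjusted p under 0.05. No gene of the domain neighbours or CDK inhibitors is filled, and *Plagl1*, at -1.02, is the 1 filled gene of the IGF2 list.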

How the data were processed

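RNA-seq libraries of WT (3) and *Patz1* KO (3) E14 ESCs were grouped by their sample titles. The authors deposited raw read counts per gene symbol in 6 files. The submitters' processing notes name TopHat2 2.1.1, Bowtie2 2.3.1.0, featureCounts 1.6.2 and DESeq2 with the mm10 genome. The gene annotation, the strand setting and the handling of duplicate reads are not given in the sources used here, so values of overlapping genes are uncertain. The study names its libraries as biological replicates, and the labels do not say whether they came from separate cultures.

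Counts of all 23420 symbols were fitted in DESeq2 1.42.0 (R 4.3.3) with genotype alone, median-of-ratios size factors, default independent filtering and no shrinkage, as a two-sided Wald test. P-values were adjusted with Benjamini-Hochberg over all genes, with a threshold of 0.05 as in the study's methods. Intervals are 95% intervals from the standard error. Alternatives were TMM size factors, edgeR 4.0.16, a filter of 10 counts in 3 libraries, no independent filtering, a replicate block, each library left out, both replicate 3 libraries left out and an adjusted p under 0.01. Scripts were tested on simulated data. Positions came from GENCODE M21 (GRCm38) and exon lengths from the union of its exons.

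Replicate numbers come from the sample titles. Deviations from the genotype means over 11524 genes correlated at 0.469, 0.619 and 0.684 between same-numbered WT and KO libraries, and at -0.54 to 0.14 between the others, so the numbers were taken to pair the libraries. No 2 libraries agreed within sampling noise. All 10 members are named, and of each gene list and of the surrounding window up to 4 genes past the threshold. Other genes named that did not pass, or passed only with the replicate block, were picked after their values were seen. The members and lists were chosen with earlier results of these data known. Imprinted expression was taken from general knowledge, since the counts do not separate alleles.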

Additional observations from a re-analysis of the deposited data

How the results depend on the processing

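Of 108 results for the 9 tested members under 12 alternatives each, 102 kept their direction and their side of the threshold. *Igf2* (log2 fold change 1.39 to 1.61) and *Cdkn1c* (1.19 to 1.72) passed under all 12. *Phlda2* ranged from 0.58 to 1.06 and lost its call under 4 of them, the edgeR test and 3 of the fits with 1 library left out. *H19* ran from -0.010 (without KO replicate 2, the 1 reversal) to 0.78 with 1 library left out. With the replicate block *Kcnq1ot1* passed (-0.32), and the block changed no other member call. The number of members past the threshold was 2 with edgeR and at an adjusted p under 0.01, 4 with the block and 2 to 3 with 1 library left out. Over all genes the count of 1146 became 2131 with the block, 719 at an adjusted p under 0.01 and 583 to 1341 with 1 library left out. The lowest counts were 605 and 664 without WT replicates 1 and 2, and 583 and 590 without KO replicates 1 and 2. The cause was not tested. In the main fit the intervals were -0.71 to 1.39 for *H19*, -0.26 to 1.69 for *Slc22a18* and -0.31 to 1.08 for *Ascl2*. They hold for that fit only. Without both replicate 3 libraries the log2 fold change of *H19* was 0.88 (SE 0.66).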
